A study of Mus musculus with 120 samples.

Results

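Genes of the cytosolic ribosomal proteins were followed through single cells of the mouse endolymphatic sac. They were taken by name from the expression table: symbols of the large subunit (Rpl and Rplp followed by a number) and of the small subunit (Rps followed by a number, and Rpsa), without the kinases named Rps6k and without entries ending in -ps. The rule gave 87 of 48371 gene symbols, 51 of the large and 36 of the small subunit. They lie on 19 chromosomes, with 4 on the X.

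The cells came from mouse embryos at E14.5 and were sequenced with Smart-seq2, a full-length protocol for single cells. There were 58 wild-type cells and 62 Sox9Y440X/+ cells, heterozygous for the allele Sox9Y440X of Sox9. The endolymphatic sac is a fluid-filled pouch of the inner ear, and Sox9 encodes a transcription factor. The labels tie no cell to an embryo or litter, so each genotype is 1 sample, no test was possible, and ranges over cells are not replicate errors. Cells with at least 1000 genes per their label were used, 57 wild-type and 58 Sox9Y440X/+.

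Levels are in FPKM, in which fragment numbers are divided by transcript length and by the total of the cell, and a gene was counted as detected at an FPKM of at least 1. The summed FPKM of a cell had a median of 463017 and ranged from 344424 to 4444520. The depth behind these values is unknown. An exact 0 can be a failed estimate, since 2 cells had 0 for Gapdh and 5 cells had 0 for Eef2. Cells were clustered without the members and named from marker genes. Among epithelium-like cells (56 wild-type, 37 Sox9Y440X/+), at least 4 of 14 epithelium markers were detected in each cell. They include an ionocyte-like cluster (8 and 5 cells) led by Foxi1, Slc26a4 and proton pump genes such as Atp6v1c2, with the mesenchyme marker Dcn also among its 10 leading genes. Mesenchyme-like cells (1 and 21), with Col3a1 and Col1a2 among their leading genes, had 0 of 14 epithelium markers in the median cell and at most 2. No cell had at least 5 epithelium and 5 mesenchyme markers.

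A ribosome joins a small subunit, which reads the mRNA, to a large subunit, which forms the peptide bond. Each ribosomal protein is needed in about equal number, and their mRNAs are among the most abundant in growing cells. Many of these mRNAs start with a run of pyrimidines (C or T in the DNA), the 5′ terminal oligopyrimidine tract, through which nutrient signalling sets their translation. A few members have a paralog that can take the same place in the ribosome, and others have processed copies elsewhere in the genome.

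RefSeq promoter entries on GRCm38.p6, from 250 bases before to 50 after an annotated start, were matched for 62 of the 87 members. The windows below show 30 bases, 15 on each side of the start, and are printed because the C or T run at the start is the feature these genes are best known for. Capitals mark an unbroken run of at least 5 C or T that overlaps positions -5 to 10 around the start. The first 3 have runs of 18 to 21 bases and Rps9 one of 9, the next 2 come from the large subunit paralog Rpl22l1 and from Rpl12, and the last 3 from members without a run at the listed start.
Rpl7a (chr2:26910792-26910821, plus strand): aTTCCCTCTTCTTTCTTTCTCCagcagccg
Rpl35 (chr2:39005117-39005146, minus strand): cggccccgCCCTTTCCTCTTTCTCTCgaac
Rpl27a (chr7:109519180-109519209, plus strand): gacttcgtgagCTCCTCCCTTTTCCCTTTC
Rps9 (chr7:3704026-3704055, plus strand): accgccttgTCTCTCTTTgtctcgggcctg
Rpl22l1 (chr3:28805493-28805522, plus strand): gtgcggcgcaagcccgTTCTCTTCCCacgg
Rpl12 (chr2:32961697-32961726, plus strand): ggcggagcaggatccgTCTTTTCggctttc
Rps3 (chr7:99483695-99483724, minus strand): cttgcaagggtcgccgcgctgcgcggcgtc
Rps4x (chrX:102189377-102189406, minus strand): ctgaggctgggcggagcaacccaggctcca
Rpl10 (chrX:74270801-74270830, plus strand): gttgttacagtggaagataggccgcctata

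Such a run was found at 1 or more listed starts in 41 of 62 members, 66.1%, against 42.01% of all 27025 symbols with an entry. Of the motifs searched on both strands of the whole 300-base entries, CCGGAAG, the core bound by ETS factors such as GABP, was in 26 members (41.9%) against 9.93% of all symbols. CTCGCGAG, a palindrome, was in 7 members (11.3%) against 1.04%, and AAGATGGC, the YY1 core, in 6 (9.68%) against 3.19%. TATAAA was in 7 (11.3%) against 15.7%. These are matches of letters. A listed start may differ from the start used in these cells, and no match says only that the letters are not in the window.

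Nearly all members were detected in nearly all cells. At an FPKM of at least 1, 79 of the 87 were detected in at least 90% of the 115 cells, and 29 of them in every cell. Their median levels had a median of 672 FPKM and spanned 58.97-fold, from 27.8 for Rpl6l to 1640 for Rps14. Among the highest were Rps14, Rpl7 (1540), Rpl10 (1527), Rps4x (1520) and Rps27 (1479). Rps14 and Rps4x are small subunit proteins, and Rpl10 is a late-joining large subunit protein near the catalytic centre. Rps14 was 456 FPKM in the lowest cell and 8005 in the highest. The 6 lowest of the 79 were Rpl6l, Rpl37 (69.0), Rps12l1 (84.3), Rpl38 (174), Rps25 (184) and Rpl35 (188).

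The 32 small subunit members among the 79 had a median level of 756 FPKM and the 47 large subunit members one of 527. Between level and exon length, Spearman rho across genes was -0.07 over 79 genes, which are not independent replicates. The order of the members was nearly the same in the 3 pairs of groups compared. Spearman rho across members was 0.97 between the genotypes in epithelium-like cells, 0.97 between mesenchyme-like and epithelium-like Sox9Y440X/+ cells, and 0.97 between ionocyte-like and other wild-type cells.

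**Figure D1:**
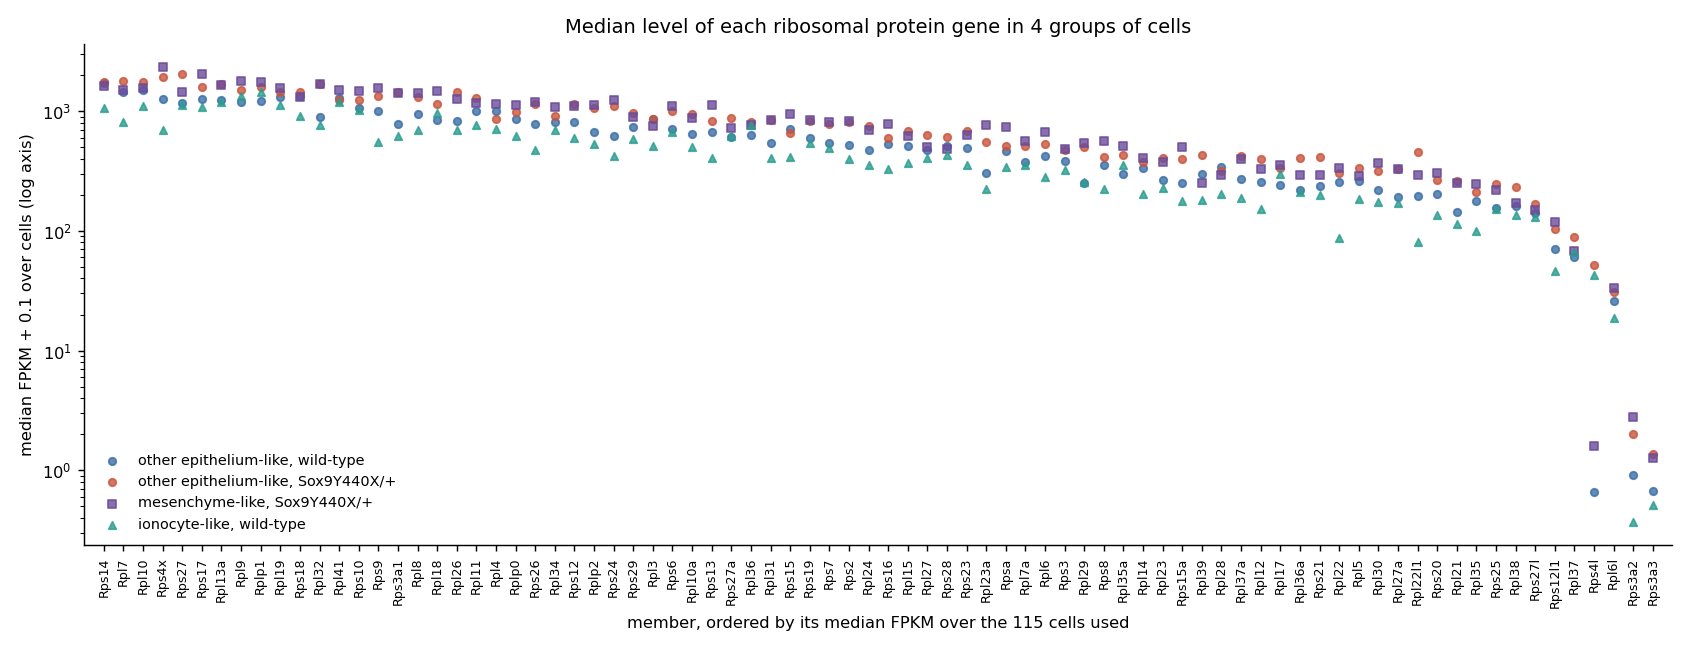
Median FPKM plus 0.1 on a log axis for 80 members with a median above 0 over the 115 cells, ordered by that median, in 4 groups of cells (wild-type and Sox9Y440X/+ epithelium-like cells outside the ionocyte-like cluster, Sox9Y440X/+ mesenchyme-like cells, wild-type ionocyte-like cells). The groups follow nearly the same order, which runs from Rps14 at 1640 down to Rps3a3 at 0.87 over the 115 cells. The wild-type ionocyte-like triangle is the lowest for 70 of the 80 members shown.

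The zeros were concentrated in a few cells. Of the 79 widely detected members, 29 were never listed at 0. The other members of the 79 made 91 zeros in all, and 80 of 115 cells had none. Exactly 1 zero was found in 20 cells, while 5 cells with at least 5 zeros each held 42 of the 91, with 16 in the most affected cell. Those 5 cells, 3 of them wild-type, had at most 1974 genes per their label. Among the members of the 79 with most zeros were Rpl22l1 (7 cells), Rpl22 (5), Rpl12 (5) and Rpl14 (4).

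The members held between 0.765% and 23.5% of a cell's summed FPKM. In wild-type epithelium-like cells outside the ionocyte-like cluster the share had a median of 12.03% (0.765% to 23.5%, 48 cells), and in wild-type ionocyte-like cells 8.15% (3.07% to 11.5%, 8 cells). In Sox9Y440X/+ cells the medians were 14.4% outside the ionocyte-like cluster (7.66% to 21.01%, 32 cells), 12.2% in ionocyte-like cells (9.39% to 15.6%, 5 cells) and 16.6% in mesenchyme-like cells (11.9% to 20.2%, 21 cells). The 1 wild-type mesenchyme-like cell held 15.9%. The order was therefore ionocyte-like, other epithelium-like, mesenchyme-like in Sox9Y440X/+ cells, and the ranges of neighbours in it overlapped.

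All 21 mesenchyme-like Sox9Y440X/+ cells lay above the median of the wild-type epithelium-like cells, 11.8%, and 19 of 21 above that of the Sox9Y440X/+ epithelium-like cells, 13.95%. All 8 wild-type ionocyte-like cells lay below the median of the other wild-type epithelium-like cells. The 2 lowest shares of all, 0.765% and 3.07%, belonged to 2 wild-type cells in which the entry AC155839.1 alone took 92.5% and 74.3% of the summed FPKM. Without that entry the members held 10.2% and 11.9% of the rest. The second of these cells is ionocyte-like. The entries Rn18s-rs5, named for a ribosomal RNA, and AY036118 together took a median of 13.4% of a cell's sum (1.002% to 24.4%), and Rn18s-rs5 was the highest symbol of 107 cells. Their median was 12.3% in wild-type cells outside the ionocyte-like cluster, 11.7% in wild-type ionocyte-like cells and 14.54% in Sox9Y440X/+ mesenchyme-like cells, and their part in the differences of share was not tested.

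**Figure D2:**
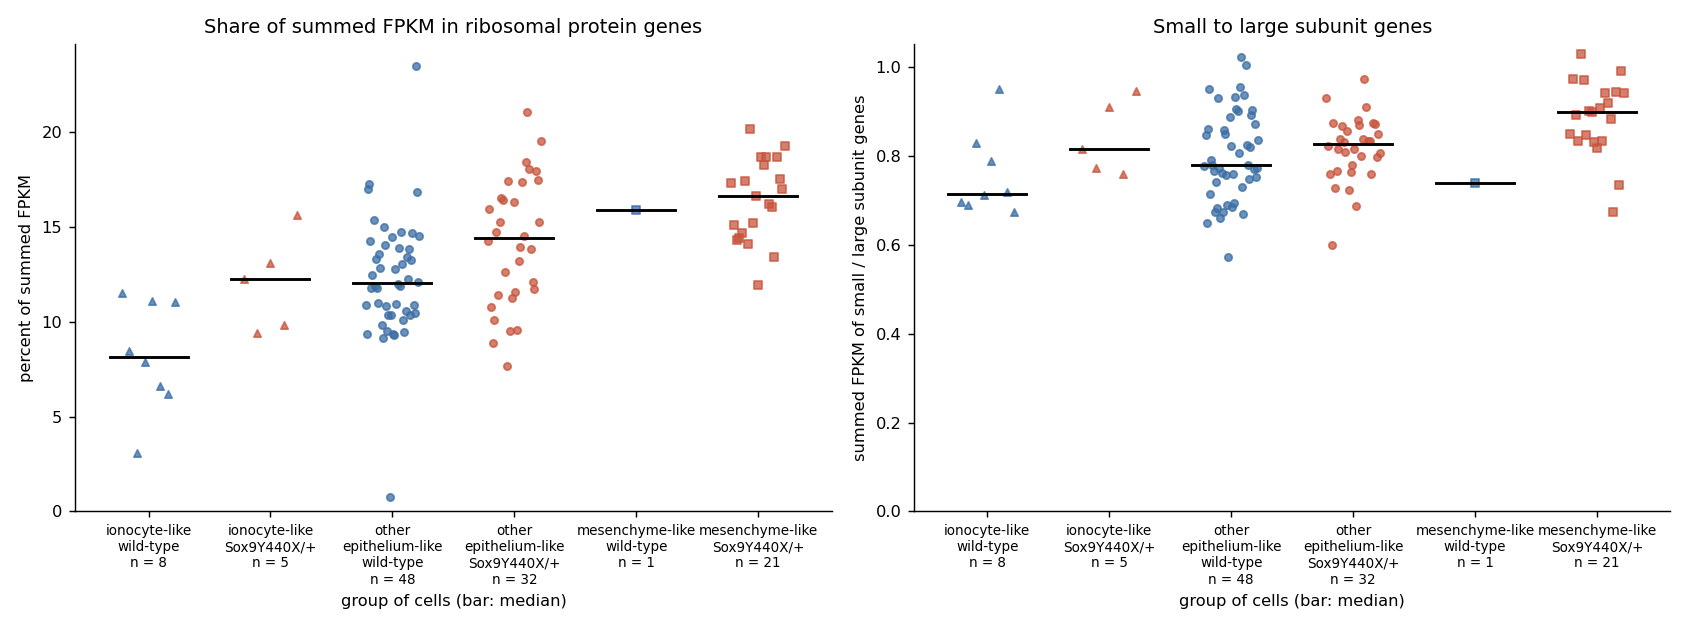
Each point is a cell, placed by class and genotype, with the group median as a bar. Left, the percent of summed FPKM in ribosomal protein genes, with medians from 8.15% in wild-type ionocyte-like to 16.6% in Sox9Y440X/+ mesenchyme-like cells. Right, summed FPKM of small over large subunit genes, with medians from 0.71 to 0.90 in the same 2 groups.

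Small and large subunit genes were not shared out alike. The summed FPKM of small subunit members over that of large subunit members had a median of 0.78 in wild-type epithelium-like cells (0.57 to 1.02) and 0.82 in Sox9Y440X/+ epithelium-like cells (0.60 to 0.97). It was 0.71 in wild-type ionocyte-like cells (0.67 to 0.95), 0.82 in Sox9Y440X/+ ionocyte-like cells (0.76 to 0.95) and 0.90 in mesenchyme-like Sox9Y440X/+ cells (0.67 to 1.03). Of the 21 mesenchyme-like cells, 18 were above the median of the Sox9Y440X/+ epithelium-like cells, and 3 were above their highest cell. The wild-type mesenchyme-like cell had a ratio of 0.74, below the median of each Sox9Y440X/+ group.

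Between genotypes, most members were somewhat higher in Sox9Y440X/+ epithelium-like cells, but few by much. The difference is that of the means of log2(FPKM + 1), Sox9Y440X/+ minus wild type, and a gene was counted when it reached 1 log2 unit. Of 84 members compared, each detected in 25% or more of the cells in either genotype, 77 were above 0, 4 were higher by at least 1 unit and 0 were lower by as much. Over all 5957 genes compared, 15.7% passed 1 unit either way, 13.5% higher and 2.2% lower, and 72.8% were above 0. The median was 0.50 over members and 0.36 over all genes. Among 241 other genes that reached an FPKM of 1 in 90% of the cells of both genotypes, the median was 0.20, 5.81% passed 1 unit (4.56% higher, 1.24% lower) and 66.4% were above 0. The share of members past 1 unit was thus below that of all genes and close to that of other widely detected genes. Scaling each cell to the same total gave member and all-gene medians of 0.46 and 0.33, and log2 ratios of mean FPKM, in which zeros weigh less, gave 0.39 and 0.08.

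Xist, the RNA made from the inactive X chromosome of female cells, also differed between the genotypes. It was below an FPKM of 1 in all 37 Sox9Y440X/+ epithelium-like cells and in 22 of 56 wild-type ones. Against those 22 cells alone, 10 of 84 members were higher by at least 1 unit, the member median was 0.53 and the all-gene median 0.18, with 12.6% of 6273 genes higher and 6.95% lower. The other 34 wild-type cells had Xist at an FPKM of 1 or more, and its part in the result over all 56 was not tested. In the comparison with all 56 cells, 1 member was higher by 1 unit over cells above 0 only, and 7 were with a pseudocount of 0.1.

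Rpl22l1 (chr3:28805436-28807424), the paralog of the RNA-binding large subunit protein Rpl22, differed most. In wild-type epithelium-like cells it was listed at 0 in 7 of 56, with a median of 172 FPKM and a highest value of 1038. In the 37 Sox9Y440X/+ cells it ran from 56.8 through a median of 373 to 1605, with no zero, and 31 of them lay above the wild-type median. The difference was 1.86 log2 units, and 0.91 when only cells above 0 were averaged, and the ranges overlapped. Rpl22 (chr4:152325742-152334071) itself had medians of 215 in wild-type and 309 in Sox9Y440X/+ cells, a difference of 0.91.

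Rpl29 (chr9:106429454-106431568), a small protein of the large subunit surface, ranged from 0 through 256 to 1162 FPKM in wild-type epithelium-like cells and from 9.04 through 501 to 1435 in Sox9Y440X/+ cells. The difference was 1.46, and 33 of 37 Sox9Y440X/+ cells were above the wild-type median. Rps3a1 (chr3:86137940-86142702), a small subunit protein, ranged from 0 through 720 to 3490 in wild-type cells and from 185 through 1396 to 3247 in Sox9Y440X/+ cells, a difference of 1.13. Zeros add to both differences: of the 56 wild-type cells, Rpl29 was listed at 0 in 3 and Rps3a1 in 2, with no zero in Sox9Y440X/+ cells. Over cells above 0 the medians of Rpl29 were 263 and 501. Rps27l (chr9:66946086-66949516), a paralog of Rps27, had zeros in 14 of 56 cells of wild type and in 4 of 37 of Sox9Y440X/+. Its medians were 137 and 170 FPKM and its difference was 1.30, or 0.29 over cells above 0. The next members were Rps24 at 0.98 and Rpl22 at 0.91. Rps24 had a median of 576 in wild-type and 1109 in Sox9Y440X/+ cells, and 31 of 37 Sox9Y440X/+ cells were above the wild-type median.

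At the other end stood Rpl4 at -0.21, Rpl28 and Rps16 at -0.12 each, Rpl41 at -0.12, Rps18 at -0.09 and Rps28 at -0.04. In each of Rpl4, Rps16 and Rps28, 1 Sox9Y440X/+ cell was listed at 0, and over cells above 0 their differences were 0.05, 0.12 and 0.22. Medians were, for Rpl4, 937 FPKM in wild-type and 859 in Sox9Y440X/+ cells, and for Rpl41, the shortest ribosomal protein, 1281 and 1256. The highest member of all, Rps14, differed by 0.08, with medians of 1512 and 1690.

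The genotype difference was not the same in each cluster. The 3 clusters that held at least 5 cells of each genotype were compared. In the ionocyte-like cluster 1, the member median was 0.51 (5 against 8 cells), with 14 members higher by 1 unit and 2 lower, against 21.4% and 24.7% of all genes compared and an all-gene median of -0.17. In cluster 3, led by Aldh1a1 and Myl7, it was 0.37 (11 against 11 cells), with 3 higher and 0 lower against 12.3% and 17.6% of all genes and an all-gene median of -0.08. In cluster 6, led by Spp1 and Oc90, it was -0.17 (6 against 22 cells), with 4 higher and 10 lower against 22.2% of all genes in either direction and an all-gene median of 0.06.

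By cluster, the median share of the members was 8.15% for wild-type and 12.2% for Sox9Y440X/+ cells in cluster 1, and 11% and 13.8% in cluster 3. In cluster 6 the order was opposite, 12.03% in wild-type and 10.4% in Sox9Y440X/+ cells. In cluster 7, led by Wnt6, both medians were 12.1%. The difference between clusters was not tested. Cluster 2, led by Fam132a and Aldh1a3, held 10 Sox9Y440X/+ cells and 1 wild-type cell, with shares of 13.95% to 21.01% against 10.3%. All 10 cells of cluster 8 were wild-type, with a median share of 13.7%. In clusters 2 and 8, cluster and genotype cannot be told apart.

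Most members were lower in wild-type ionocyte-like cells, while most other genes compared were higher. Ionocytes move protons and anions across the sac epithelium. Of 84 members compared between the 8 ionocyte-like and the 48 other wild-type epithelium-like cells, 64 were below 0, 2 were higher by at least 1 unit and 4 were lower. Over all 7700 genes compared, 43% passed 1 unit either way, 36.6% higher and 6.44% lower, and 77.5% were above 0. The median was -0.28 over members and 0.67 over all genes, and -0.45 and 0.58 with each cell scaled to the same total. Among 209 other widely detected genes it was 0.05, and -0.14 after that scaling. Of these, 16.7% passed 1 unit (12% higher, 4.78% lower) and 54.1% were above 0. Scaled without the 10 highest symbols of each cell, the medians were -0.29 over members, 0.66 over all genes and 0.04 over those 209. The ionocyte-like cell with 74.3% of its summed FPKM in AC155839.1 is included, and its part in these shifts was not tested. By log2 ratios of mean FPKM the medians were -0.52 over members and 0.19 over all genes. Ionocyte-like cells had a median of 4913 genes per label against 3138 in the others.

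Rpl22 was lowest relative to the other cells. Its FPKM in the 8 wild-type ionocyte-like cells ran from 0 through a median of 86.4 to 224, and all 8 lay below the median of the other cells, 255, whose highest was 1124. The difference was -1.94, and -1.42 without the ionocyte-like cell dominated by AC155839.1 and the other such cell. Rpl12 (chr2:32961559-32965345), which forms the base of the large subunit stalk, had a median of 152 (0 to 231) against 255 (0 to 880), a difference of -1.32 with all 8 cells below that median. It was listed at 0 in 1 of the 8 and 2 of the 48 cells, and over cells above 0 its medians were 166 and 265. Rpl22l1 had 81.0 (0 to 172) against 194 (0 to 1038), a difference of -1.15, again with all 8 cells below. Rps3 (chr7:99477896-99483738), at the mRNA entry site of the small subunit, had 322 (0 to 450) against 382 (88.6 to 1026), a difference of -1.35. Of its 8 cells 3 were above that median, and over cells above 0 the difference was -0.31, without the 1 cell listed at 0.

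Other small subunit members were lower by a little less. Rps16 had a median of 327 in the ionocyte-like and 531 in the other wild-type cells (-0.87), Rps9 549 and 992 (-0.86), and Rps14 1063 and 1726 (-0.81). For Rps16, Rps14, Rps15 (410 and 705, -0.77) and Rps4x (693 and 1262, -0.77) all 8 ionocyte-like cells lay below the median of the others. The 3 largest positive differences belonged to members with many zeros. Rpl7l1 was listed at 0 in 2 of 8 ionocyte-like and 36 of 48 other cells (2.19), Rps27l in 0 of 8 and 14 of 48 (1.84), and Rps4l in 2 of 8 and 24 of 48 (0.75). Over cells above 0 these became -0.12, -0.31 and -1.35. Among widely detected members, Rpl18 had a difference of 0.49, Rpl17 of 0.47 and Rpl36 of 0.44.

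The same contrast in Sox9Y440X/+ cells, 5 ionocyte-like against 32 others, was added after the data were seen. Its member median was -0.25 against 0.28 over all 7150 genes, with 2 members higher and 4 lower by 1 unit, against 30.5% and 17.5% of all genes (48% either way). Apart from Rpl22l1 and Rps27l, the members past 1 unit differed from those of wild type. Rpl22 was 90.02, 393, 430, 434 and 465 FPKM in the 5 cells against a median of 301 in the others, a difference of 0.47. In 4 of the 5 cells Rpl22 was above the highest wild-type ionocyte-like cell, at 224. Rpl12 had a difference of -0.31 and Rps3 of 0.51. Rpl22l1, at 76.0, 118, 153, 279 and 603 against a median of 454, had a difference of -1.11, and Rps27l one of 1.03. Rps9 (0.07), Rps16 (0.17), Rpl18 (-0.28) and Rpl17 (-0.33) had the opposite sign to that in wild type. Rpl36a, an X-linked large subunit gene, was lowest with -2.34, listed at 0 in 1 of the 5 cells. The difference between genotypes was not tested.

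**Figure D3:**
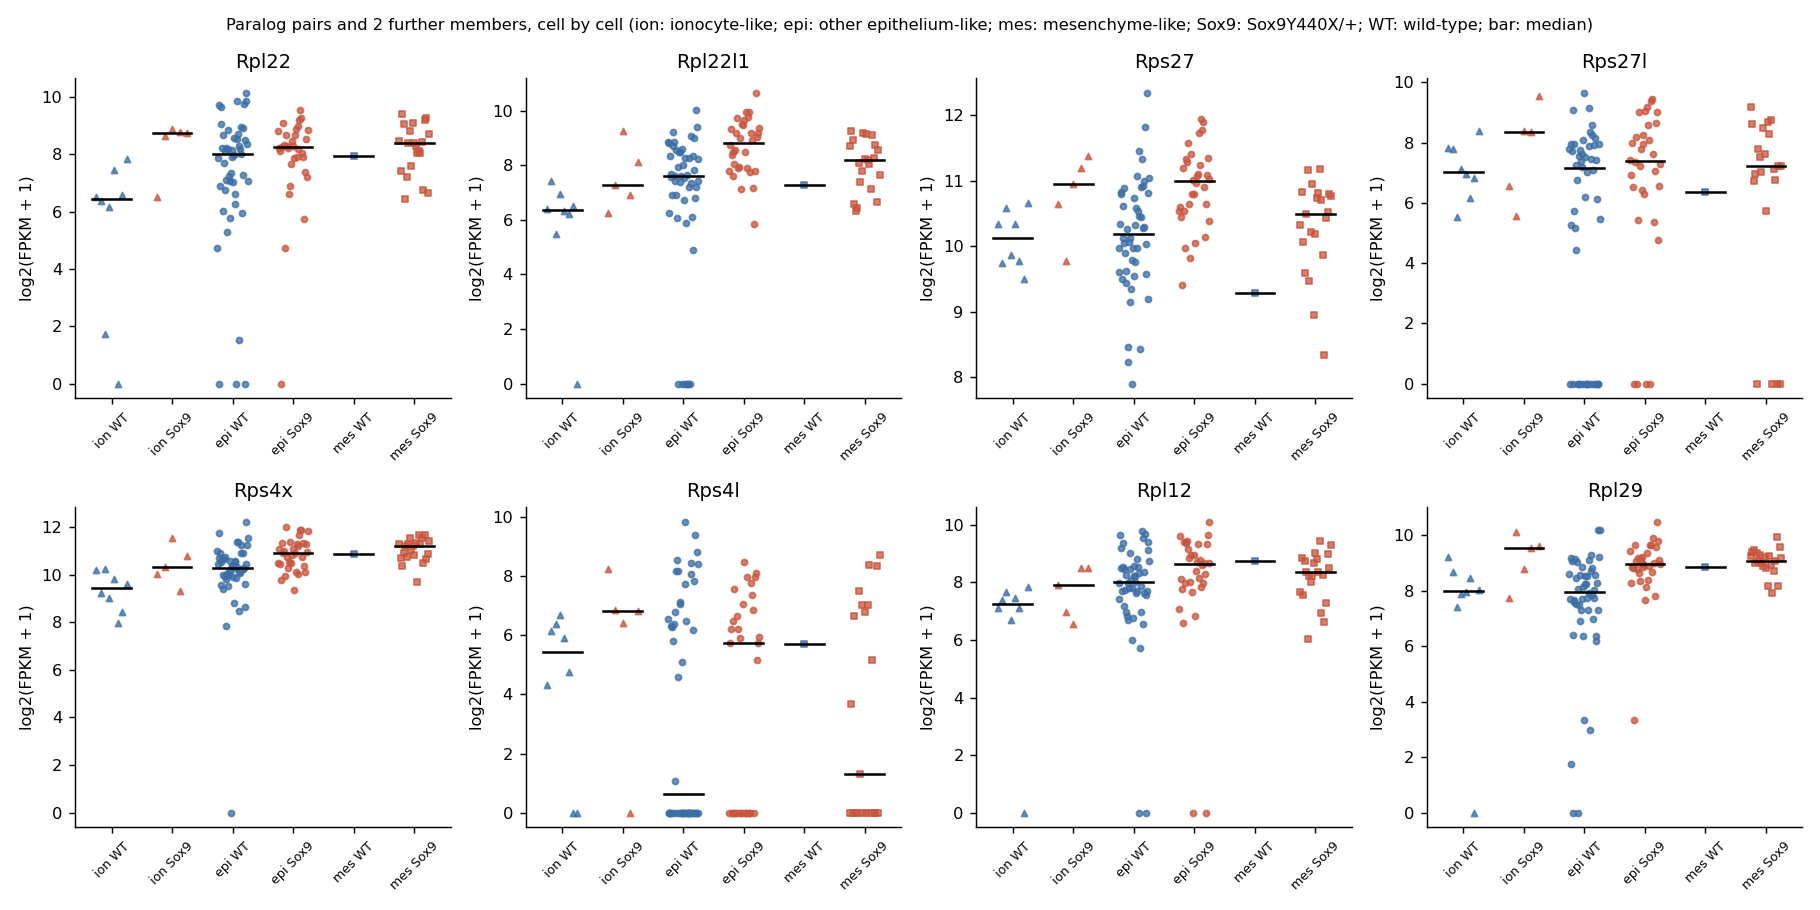
Log2(FPKM + 1) of 8 members in each cell, by class and genotype, with the group median as a bar. Rpl22 lies at or below 224 FPKM in the 8 wild-type ionocyte-like cells and at 393 to 465 in 4 of the 5 Sox9Y440X/+ ones, while Rps27l and Rps4l fall into cells listed at 0 and cells well above 0.

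Mesenchyme-like cells had member levels near those of epithelium-like cells. The comparison used the 21 mesenchyme-like and 37 epithelium-like Sox9Y440X/+ cells. Of 84 members, 53 were above 0, 0 were higher by at least 1 unit and 1 was lower. Over all 6620 genes compared, 37.7% passed 1 unit either way, 12.9% higher and 24.9% lower, and 40% were above 0. The median was 0.13 over members, 0.25 for the small subunit and 0.11 for the large, and -0.27 over all genes. Among 265 other widely detected genes it was 0.05, with 10.9% past 1 unit (6.42% higher, 4.53% lower) and 55.1% above 0. Scaled to the same total, the member median was 0.27 and that of all genes -0.20. For the 265 other widely detected genes the scaled median was 0.18, with 66.0% above 0.

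Among the members higher in mesenchyme-like cells, the small subunit gene Rps16 had a median of 778 FPKM (465 to 1388) against 583 (0 to 1353), a difference of 0.88 with 19 of 21 cells above the epithelium-like median. It was listed at 0 in 1 epithelium-like cell, and over cells above 0 the difference was 0.64. The large subunit genes Rpl23a, Rpl35a and Rpl6 differed by 0.73, 0.71 and 0.60.

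Lower in mesenchyme-like cells was Rpl27 (chr11:101442298-101445529), with a median of 505 (0 to 752) against 598 (224 to 1375) and a difference of -1.18. It was listed at 0 in 2 mesenchyme-like cells, and over cells above 0 the difference was -0.34. Rpl39, a very small X-linked protein of the peptide exit tunnel, was lower without any zero, with a median of 253 (6.58 to 643) against 397 (133 to 980). Its difference was -0.92 and 17 of 21 cells were below the epithelium-like median. Rps27, a zinc finger protein of the small subunit, had 1439 (323 to 2316) against 2010 (677 to 3944), a difference of -0.58 with 19 of 21 cells below. The paralogs Rps4l, Rps27l and Rpl22l1 differed by -0.73, -0.61 and -0.50, the first pair with zeros on both sides. Rpl7 had medians of 1490 and 1770 and a difference of -0.49.

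**Figure D4:**
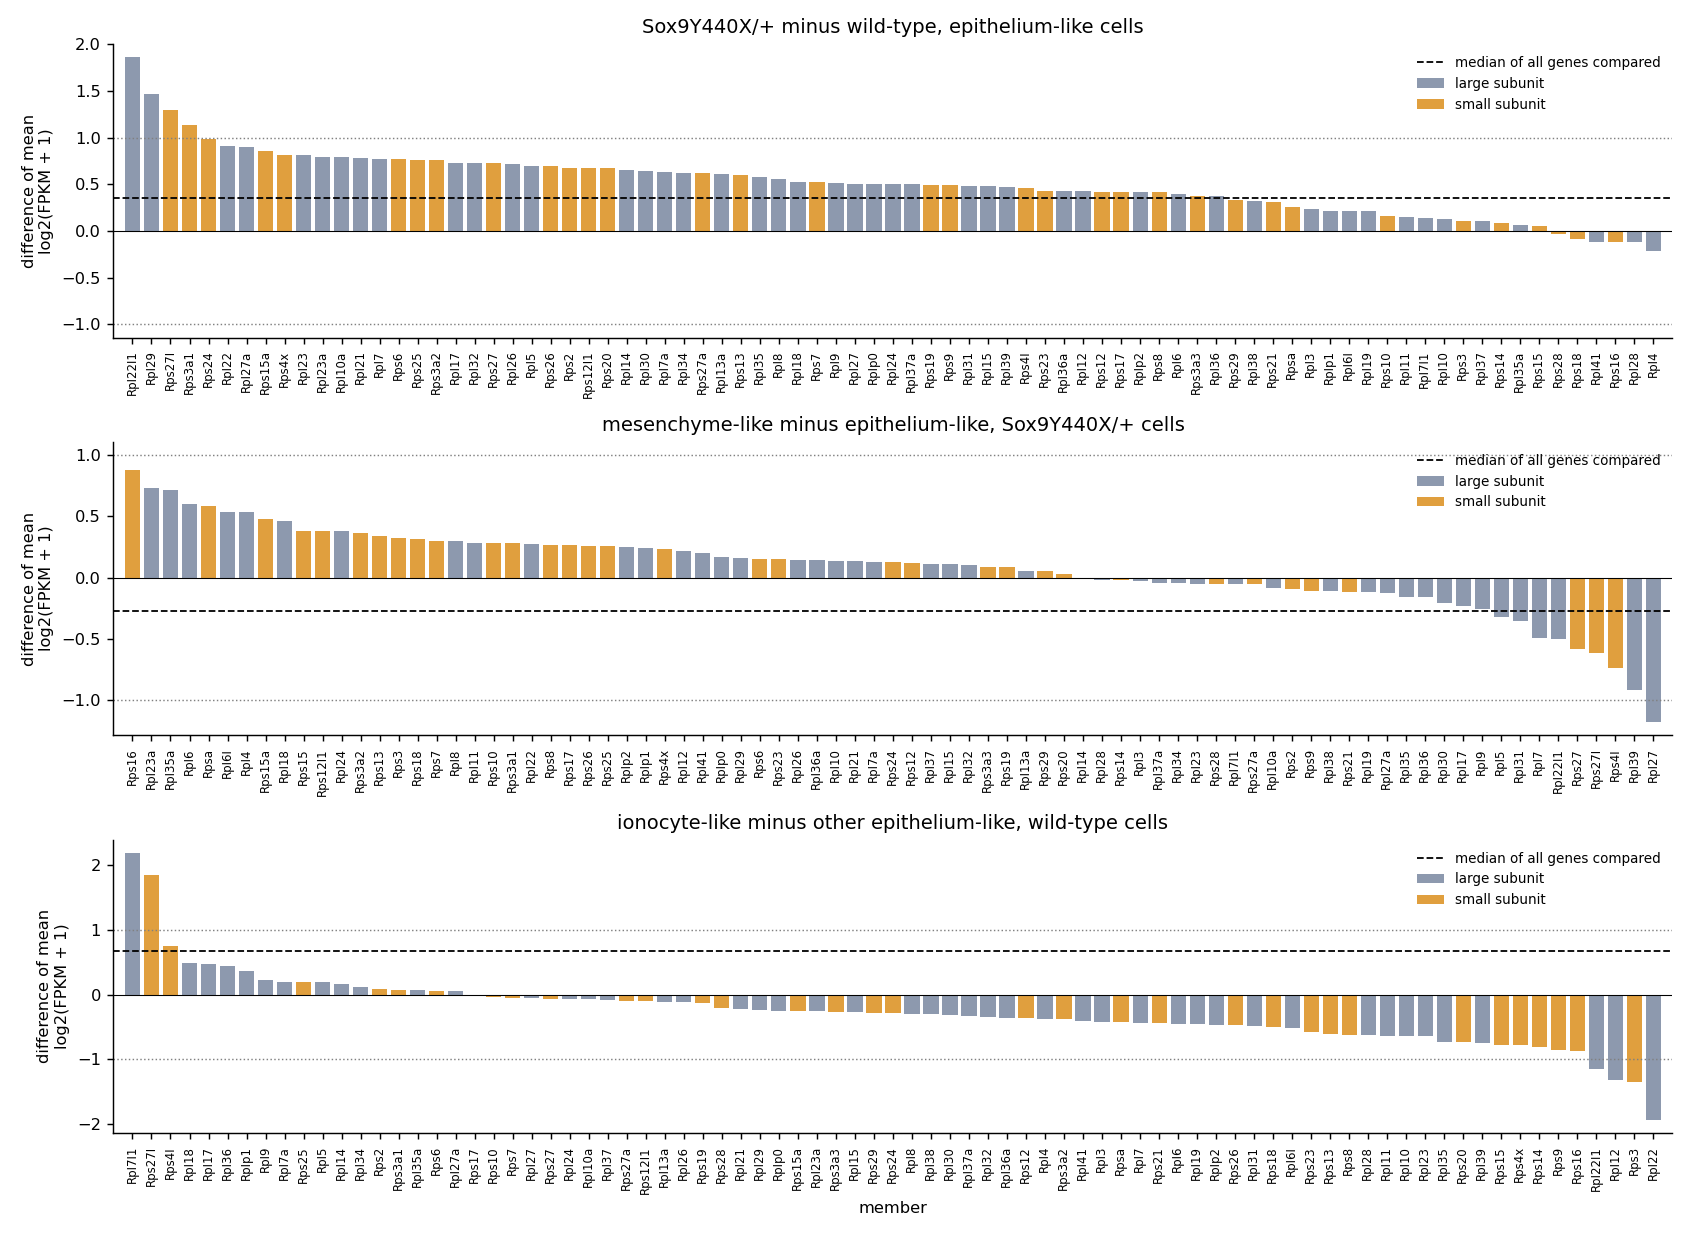
Difference of mean log2(FPKM + 1) for 81 of the 84 members compared, ordered within each of the 3 comparisons, with large and small subunit members in different colours. The dashed line is the median of all genes compared (0.36, -0.27 and 0.67 from top to bottom) and the dotted lines mark 1 unit. Of the 81 members drawn, 58 lie above the dashed line in the top panel, 72 in the middle panel and 3 in the bottom panel.

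The members of functional groups differed among themselves. The P-stalk proteins Rplp0, Rplp1 and Rplp2 recruit the translation factors to the large subunit. They differed by 0.50, 0.22 and 0.42 between genotypes in epithelium-like cells, by 0.17, 0.24 and 0.25 in mesenchyme-like against epithelium-like cells, and by -0.25, 0.37 and -0.46 in ionocyte-like against other wild-type cells. Rpl5 and Rpl11, which bind the 5S ribosomal RNA and restrain Mdm2, differed by 0.70 and 0.15 between genotypes and by 0.19 and -0.64 in wild-type ionocyte-like cells. Of the X-linked members, Rpl10, Rpl36a, Rpl39 and Rps4x differed by 0.13, 0.43, 0.47 and 0.82 between genotypes, and by 0.35, 0.42, 0.60 and 0.90 against the wild-type cells with Xist below an FPKM of 1. Rps27a, made as a fusion with ubiquitin, differed by 0.62. None of these reached 1 unit.

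Members named as copies fell into separate kinds by sequence. Coding sequences were compared with GENCODE M21 transcripts. Rps12l1, Rps3a2, Rps3a3 and Rpl6l, which GENCODE lists as processed pseudogenes, matched their sources over 384, 792, 791 and 871 aligned bases at 100%, 99.5%, 98.99% and 98.7%. Reads of such copies can hardly be told from those of the source gene, so their levels are uncertain. Median levels were 84.3 FPKM for Rps12l1 beside 865 for Rps12, 27.8 for Rpl6l beside 478 for Rpl6, and 1.51 and 0.87 for Rps3a2 and Rps3a3 beside 1073 for Rps3a1. Rps3a2 was listed at 0 in 22 cells and Rps3a3 in 26. Rps4l, a transcribed processed pseudogene, matched Rps4x at 79.9% of 783 bases. The protein-coding paralogs Rps27l and Rpl22l1 matched at 76.5% of 226 and 75.5% of 294 bases.

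The stretches below are 60 coding bases of a source gene and of its copy, shown to set a near-identical copy (Rpl6l) beside copies with more differences. Capitals mark bases that differ between the members of a pair.
Rpl6: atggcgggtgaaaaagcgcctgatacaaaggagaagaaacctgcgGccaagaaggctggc
Rpl6l: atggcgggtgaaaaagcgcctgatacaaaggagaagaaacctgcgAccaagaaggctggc
Rps4x: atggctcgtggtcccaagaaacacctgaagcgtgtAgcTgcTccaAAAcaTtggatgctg
Rps4l: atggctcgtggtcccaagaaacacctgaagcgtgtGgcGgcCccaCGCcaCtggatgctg
Rps27: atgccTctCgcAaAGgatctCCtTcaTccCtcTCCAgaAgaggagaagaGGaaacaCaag
Rps27l: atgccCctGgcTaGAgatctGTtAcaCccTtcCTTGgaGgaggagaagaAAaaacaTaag
Rpl22: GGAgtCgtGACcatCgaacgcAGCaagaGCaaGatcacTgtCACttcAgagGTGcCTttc
Rpl22l1: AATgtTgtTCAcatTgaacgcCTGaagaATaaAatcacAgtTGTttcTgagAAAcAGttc

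The more diverged copies were present in some cells and listed at 0 in others. Rps4l (chr6:148354656-148355598) was listed at 0 in 51 of 115 cells, yet among the epithelium-like cells with a value above 0 its median was 98.1 FPKM in wild-type and 113 in Sox9Y440X/+ cells. It had at least 10 FPKM in 29 of 56 and 22 of 37 of these cells, and between 1 and 10 in 1 and 0. Rps4l exceeded Rps4x in 3 wild-type epithelium-like cells and in no Sox9Y440X/+ one. Rps27l was listed at 0 in 22 of 115 cells and never exceeded Rps27. Rpl22l1 exceeded Rpl22 in 26 of 56 wild-type and 21 of 37 Sox9Y440X/+ epithelium-like cells, and in 9 of 21 mesenchyme-like ones.

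Other paralogs were listed at 0 throughout or detected in few cells. Rpl3l, known from striated muscle, and Rpl10l and Rpl39l, known from testis, were listed at 0 in all 115 cells, while Rpl3, Rpl10 and Rpl39 had medians of 809, 1527 and 317 FPKM. The FPKM give no count, so no upper limit can be set on them. Rpl7l1 (chr17:46773907-46782672) was detected in 33 cells, with a highest value of 307 FPKM, and it aligned to Rpl7 over 12.6% of the coding sequence at 70.6%.

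Against the number of genes per cell, the count of members detected and their share behaved differently. All correlations here are descriptions across cells that share a genotype and protocol. Over the 115 cells, members detected followed genes per label with a Pearson r of 0.63 and a Spearman rho of 0.64, from 64 members in the cell with 1209 genes to a highest count of 84. The medians were 81 in wild-type and 82 in Sox9Y440X/+ cells. The share of summed FPKM did not follow it over all cells, with r of 0.10 and rho of 0.10.

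Within classes the share went in different directions. In wild-type epithelium-like cells r was -0.22 (rho -0.27, 56 cells), and -0.10 (48 cells) without the ionocyte-like cells. In Sox9Y440X/+ epithelium-like cells r was 0.47 (rho 0.52, 37 cells) and in mesenchyme-like ones 0.20 (rho 0.29, 21 cells). Within cluster 3 the genotypes were alike, with r of 0.56 in each (11 cells each). Within cluster 6 it was -0.02 in wild-type (22 cells) and -0.43 in Sox9Y440X/+ cells (6 cells). With the 115 cells cut into 3 nearly equal bins by genes per label, wild-type and Sox9Y440X/+ epithelium-like cells had median shares of 12.8% and 12.5% in the lowest bin (1209 to 3135 genes, 24 and 8 cells), and 11.5% and 11.2% in the middle bin (3155 to 4542 genes, 16 and 12 cells). In the highest bin (4592 to 6459 genes, 16 and 17 cells) they were 10.9% and 16.4%. Of the 17 Sox9Y440X/+ cells in the highest bin, 8 were of cluster 2 (median 16.9%) and 8 of cluster 3 (15.5%). The 16 wild-type ones were 11 of cluster 3 (median 11%) and 5 ionocyte-like (8.43%).

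**Figure D5:**
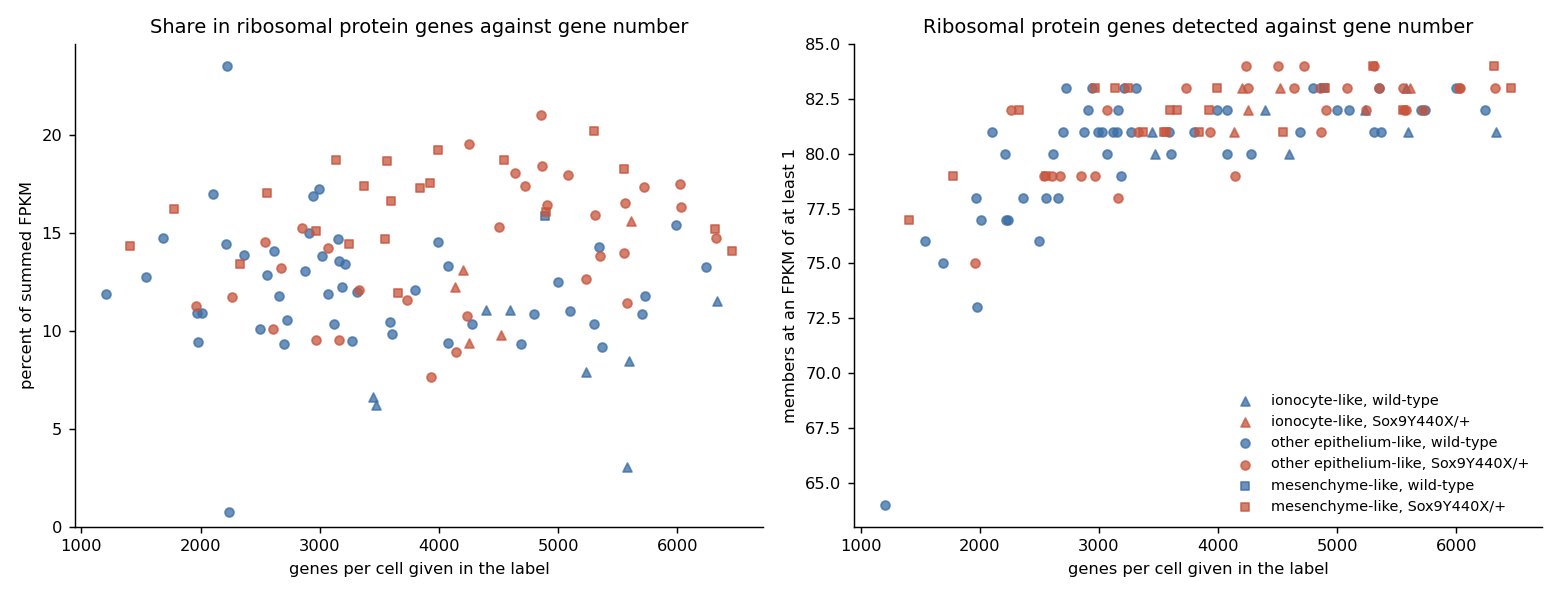
Each point is a cell, by genes per label on the x axis. Left, percent of summed FPKM in ribosomal protein genes, where the Sox9Y440X/+ epithelium-like cells with 4592 genes or more have a median of 16.4% and the wild-type ones of 10.9%. Right, members detected at an FPKM of at least 1, which rise with gene number from 64 to 84.

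Members followed each other across cells only weakly. Over the pairs of the 79 widely detected members, the Pearson r of log2(FPKM + 1) had a median of 0.14 over 56 epithelium-like cells of wild type and of 0.29 over 37 of Sox9Y440X/+. After scaling to the same total it was 0.29 and 0.23, and in cells with 2500 to 5500 genes the scaled medians were 0.16 and 0.27. With 241 other widely detected genes the median r was 0.03 and 0.09 as deposited, and 0.17 and 0.05 scaled. In cells with 2500 to 5500 genes these scaled values were 0.01 and 0.04. Rps23 (0.77), Rps9 (0.75) and Rpl32 (0.74) followed the mean of the other members most closely after scaling, over 93 cells, and Rpl29 (0.24), Rpl4 (0.27) and Rpl24 (0.29) least. These members share the library and the total of each cell. The scaled values over the 56 wild-type cells and over the 93 cells include the 2 cells dominated by AC155839.1. Neither of them has 2500 to 5500 genes, and their part in these values was not tested.

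The genes outside the rule that were most like the members were largely of translation. Among 1486 genes with an FPKM of 1 or more in 50% of the 93 epithelium-like cells, the highest r with the mean member level after scaling was 0.67 for the elongation factor Eef1a1. Among those that followed were AY036118 (0.58), Fau (0.58), Tpt1 (0.56), Rack1 (0.54), Eef1b2 (0.54) and Hsp90ab1 (0.53). Fau encodes a fusion of a ubiquitin-like protein with a small subunit protein, and Rack1 is a small subunit component. For Eef1a1 the scaled r was 0.78 in wild-type and 0.40 in Sox9Y440X/+ cells, and for AY036118 it was 0.61 and 0.02. As deposited, over all 93 cells, it was 0.45 for Eef1a1 and 0.42 for AY036118. The scaled wild-type values include the 2 cells whose total is dominated by AC155839.1, and the difference between genotypes was not tested.

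In the wild-type ionocyte-like comparison, the medians of the members and of the entries ending in -ps were below 0. Those of the other related lists given here were above 0, and no difference between lists was tested. The 95 entries ending in -ps that were compared had a median of -0.20, with 24.2% above 0 against 77.5% of all genes. In these cells, 46 of 71 genes of the mitochondrial ribosome were higher by at least 1 unit and 3 were lower, with a median of 1.44. For ribosome assembly factors such as Npm1 and Fbl it was 10 of 19 higher and 0 lower, with a median of 1.03, and for translation factors 7 of 16 and 0, with a median of 0.89. The background was 36.6% higher and 6.44% lower. The median over members was -0.28 and over the 4 ribosomal components outside the rule 0.01. The summed FPKM of the translation factors was close in these groups, with medians of 6155 and 6495, and that of the mitochondrial ribosome was 3048 and 2315. For the assembly factors it was lower in ionocyte-like cells, 734 against 817. The lists are unlike in detection. An FPKM of 1 in 90% of the cells of both groups was reached by 74 members, but by no assembly or mitochondrial ribosome gene.

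Between genotypes in epithelium-like cells, 6 of 16 translation factors, 4 of 18 assembly factors and 18 of 67 mitochondrial ribosome genes were higher by at least 1 unit, against 13.5% of all genes, with medians of 0.70, 0.48 and 0.45 beside 0.50 over the members. In mesenchyme-like against epithelium-like cells, the medians were -0.18, -0.63 and -0.15, with 1 of 16, 3 of 20 and 8 of 70 higher and 2, 5 and 15 lower, against 12.9% and 24.9% of all genes. Of the broadly expressed reference genes, such as Actb and Gapdh, 11 were compared and their medians were 0.22, -0.86 and 0.47 in the genotype, mesenchyme-like and ionocyte-like comparisons. In each, 6 of them reached an FPKM of 1 in 90% of the cells of both sides, with medians of -0.01, -0.09 and 0.20. Their summed FPKM had a median of 6891 in mesenchyme-like and 5201 in epithelium-like Sox9Y440X/+ cells. For translation factors it was 7981 and 7184, for assembly factors 1267 and 908, and for the mitochondrial ribosome 2783 and 2831.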

How the data were processed

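The authors deposited 1 table of FPKM per gene and cell (48555 entries, 120 cells). Per the submitters' processing notes, HISAT2, SAMtools 0.1.18, Cufflinks and HTSeq were used with build mm10. Their roles and settings, and the annotation, were not given in the sources used here. Entries of 1 symbol were summed, giving 48371 symbols. Of the gene identifiers, 99.3% were in GENCODE M21 (GRCm38, the assembly of mm10).

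Cells under 1000 genes per label were left out (1 wild-type, 4 Sox9Y440X/+). Cells were clustered by Ward linkage into 8 clusters on 15 principal components from the 1500 genes of highest variance, members left out, with no doublet caller. A cluster took the class whose markers had the highest mean, with at least 3 of them in 50% of its cells. It was ionocyte-like with at least 8 ionocyte markers.

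Each genotype was 1 sample, so no p-value was computed. Differences are of mean log2(FPKM + 1), with a pseudocount of 1, which understates low genes. A gene entered at an FPKM of at least 1 in 25% of the cells of either side. The contrast was run on simulated data, drawn as normal log values with changes added only to genes of high level. That run does not show how the contrast treats the zeros of the named members. Members named are the 6 extremes of each comparison and of the levels, those with most zeros or detected in few cells, and fixed groups. Rpl7a, Rpl14, Rpl24, Rpl27a, Rpl32, Rps12, Rps15 and Rps23 fall outside it and were named after their values were seen. The contrast in Sox9Y440X/+ ionocyte-like cells was also added then. A few genes under the rule are not reported here by name or drawn, but counts and medians include them. Members, lists and settings were chosen with earlier results of these data known. Analyses used Python 3.11.15, numpy 2.4.6, pandas 2.3.3, scipy 1.17.1 and matplotlib 3.10.9.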

Additional observations from a re-analysis of the deposited data

How the results depend on the processing

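No paired analysis was possible because cell numbers shared between genotypes are only names and no test was made. Of 612 values of 36 named members under other settings, 45 had the opposite sign to the reported difference. Of these, 39 belonged to 14 reported differences under 1 unit, among them those of Rpl4, Rps16, Rps28, Rpl17 and Rpl18. The other 6, reported at 1 unit or more, were Rps3a1 (-0.34 in cluster 6), Rpl7l1 (-0.12 over cells above 0, -0.69 in Sox9Y440X/+ cells), Rps27l (-0.31 over cells above 0), Rps3 (0.51) and Rpl22 (0.47, both in Sox9Y440X/+ cells). A median, count or correlation was counted as moved past a factor of 1.5, and a share or number of members past 1 SD over cells, both limits chosen after seeing the data.

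For the genotype comparison, the members higher by 1 unit numbered 7 with a pseudocount of 0.1, 2 by the log2 ratio of mean FPKM, 1 over cells above 0, 2 in cells with 2500 to 5500 genes, 10 against wild-type cells with Xist below an FPKM of 1 and 14 in cluster 1. Lower members numbered 2 in cluster 1 and 10 in cluster 6, where the median was -0.17. For mesenchyme-like cells, the median was 0.090 by the ratio of means, 0.27 scaled to the same total, 0.28 scaled without the 10 highest symbols, 0.24 with all 120 cells and 0.34 in cells with 2500 to 5500 genes. Higher members numbered 1 with a pseudocount of 0.1 and 2 under either scaling. Lower members numbered 2 with a pseudocount of 0.1 and 0 with a pseudocount of 10, by the ratio of means, over cells above 0, with all 120 cells, with at least 2000 genes and with 2500 to 5500 genes. For ionocyte-like cells, the median was -0.52 by the ratio of means, -0.45 scaled to the same total, -0.44 with 2500 to 5500 genes and -0.51 with 12 clusters. Higher members numbered 0 with a pseudocount of 10, 1 by the ratio of means, 0 over cells above 0 and 1 when detection was asked of both sides. Lower members numbered 7 scaled to the same total, 10 with 2500 to 5500 genes and 20 with 12 clusters, which put 11 wild-type cells in the ionocyte-like class. The cause of these moves was not tested.

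Without the 10 highest symbols of each cell, the shares were 15.3% and 19.4% in other epithelium-like wild-type and Sox9Y440X/+ cells, 12.003% and 15.2% in ionocyte-like and 19.7% in mesenchyme-like cells. Without Rn18s-rs5 and AY036118 the last was also 19.7%. Members detected had a median of 82.5 above an FPKM of 0 in wild-type ionocyte-like cells. At an FPKM of at least 10 it was 81 in Sox9Y440X/+ ionocyte-like and 80 in mesenchyme-like cells. The correlation of share with genes was 0.32 over all 120 cells, -0.22 and 0.47 within wild-type and Sox9Y440X/+ epithelium-like cells, and 0.20 within mesenchyme-like cells. That between members was 0.29 in wild-type cells scaled to the same total, with the 2 cells dominated by AC155839.1 included. Depth is unknown, so the limit on low members cannot be given.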
